A study of Mus musculus with 6 samples.

Results

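Fancl, Rad18 and Mcph1, mouse genes of the DNA damage response, each gave rise to a family of circular RNAs (circRNAs) in cells that were turning into white fat cells. Their members were found by position. They are 3 index circles with the circBase identifiers mmu_circ_0000248 (Fancl), mmu_circ_0001504 (Rad18) and mmu_circ_0001663 (Mcph1), together with every other circRNA of the deposited table that overlaps 1 of these on the same strand. This gave 9 of the 3662 circRNAs, namely 2 of Fancl, 3 of Rad18 and 4 of Mcph1. The table held 0 further circRNAs of the 3 genes outside these spans. The index circles had been selected on their back-splice counts over the stages, so their levels are given as a description and were not tested. The 6 overlapping circles were taken by position alone and were tested where their counts allowed.

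The cells were stromal vascular fraction (SVF) cells of inguinal white adipose tissue (WAT), from 6-week-old mice, C57BL/6 in the labels and female C57BL/6J in the methods. This fraction is the mixture of cells that is left once the fat cells of a pad are taken away, so preadipocytes share it with blood vessel and immune cells. Growing cells were taken at D0, before any inducer. D4 cells had received insulin, dexamethasone and 3-isobutyl-methylxanthine from D0 on, and D8 cells had then received insulin and T3 (triiodothyronine) up to D8. Each of the 3 stages had 2 replicates, and from all 6 samples rRNA and linear RNA had been removed before sequencing. All cells were of the same strain, and the labels name no engineered allele.

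A circRNA forms when the end of an exon is spliced backwards to its own start or to that of an exon upstream, and only reads across this back-splice joint tell the circle from the linear RNA of the gene. FANCL is the RING-type ubiquitin ligase of the Fanconi anaemia core complex and attaches ubiquitin to FANCD2 and FANCI where DNA strands are crosslinked. RAD18 is a RING-type ligase that works with RAD6 to mark PCNA with ubiquitin at stalled replication forks, which brings in translesion polymerases. MCPH1 (microcephalin) is a BRCT-domain protein of the damage response that also holds back premature chromosome condensation, and its loss in humans causes a small brain. Fat precursors divide before they differentiate, and a link of these proteins to that division was not tested.

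The joints are shown because they define each member, and because they show which circles of a gene share a first or a last exon. Each sequence reads 5′ to 3′ over 50 bases, with the last 25 bases of the 3′ exon in lower case and the first 25 bases past the joint in capitals. These are the start of the 5′ exon in all members but the Mcph1 intron 9 circle, where they lie in an intron of the annotation. Coordinates and bases are of the mm9 build (NCBIM37).
Fancl circ_0000248, chr11:26297746-26334500, plus strand: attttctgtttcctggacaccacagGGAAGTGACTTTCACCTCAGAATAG
Fancl exons 2 to 5, chr11:26297746-26307648, plus strand: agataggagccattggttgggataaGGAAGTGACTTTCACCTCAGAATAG
Rad18 circ_0001504, chr6:112622118-112631670, minus strand: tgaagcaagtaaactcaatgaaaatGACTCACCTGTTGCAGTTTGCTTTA
Rad18 circ_0012939, chr6:112629911-112631670, minus strand: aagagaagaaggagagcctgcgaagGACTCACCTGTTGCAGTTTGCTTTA
Rad18 exons 5 to 9, chr6:112615272-112631670, minus strand: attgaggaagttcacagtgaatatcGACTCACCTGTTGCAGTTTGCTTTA
Mcph1 circ_0001663, chr8:18668946-18689059, plus strand: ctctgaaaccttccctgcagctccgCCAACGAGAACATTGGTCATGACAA
Mcph1 circ_0001662, chr8:18641565-18689059, plus strand: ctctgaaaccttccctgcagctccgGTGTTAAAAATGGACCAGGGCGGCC
Mcph1 circ_0014724, chr8:18641565-18671254, plus strand: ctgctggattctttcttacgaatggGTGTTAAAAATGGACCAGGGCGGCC
Mcph1 intron 9 circle, chr8:18665430-18689059, plus strand: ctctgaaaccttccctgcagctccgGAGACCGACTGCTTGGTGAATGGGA

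The capitals are the same in both Fancl joints and in all 3 Rad18 joints, so these circles begin at 1 acceptor exon and differ in the donor exon. In Mcph1 the pattern is mixed. Of its 4 circles 3 share the lower-case end, exon 12, and 2 share the start at exon 9. In the genome, AG stands before the first exon and GT after the last, the usual splice signals, in all 9 members and in 3646 of the 3662 circRNAs. Absent from circBase are 3 of the 9 members (Fancl exons 2 to 5, Rad18 exons 5 to 9 and the Mcph1 intron 9 circle), against 35.6% of all circRNAs.

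Fancl lies on the plus strand at chr11:26286135-26371876 and its transcript with the fitting exons has 14 of them. The index circle circ_0000248 holds exons 2 to 7, which add up to 444 coding bases and cover codons 33 to 180 of 375. The RING finger of FANCL sits at the C-terminal end, past the last codon in the circle. The second circle stops at exon 5 and holds 278 bases.

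Rad18 lies on the minus strand at chr6:112569844-112646680, also with 14 exons. Its 3 circles all begin with exon 5, at codon 89 of 556, and end with exon 6 (438 bases), exon 8 (700 bases, the index circle) or exon 9 (761 bases). The RING finger of RAD18 is at the N-terminal end, before the first codon the circles hold.

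Mcph1 lies on the plus strand at chr8:18595131-18803189 and has 14 exons. The index circle circ_0001663 holds exons 10 to 12, 279 bases of codons 633 to 725 out of 822, in the C-terminal part of the protein where its paired BRCT domains are. The circle circ_0001662 adds exon 9 in front (380 bases, from codon 599), and circ_0014724 runs from exon 9 to exon 11 (302 bases). The remaining circle ends with exon 12, but begins inside intron 9, 23765 bases past exon 9 and 3516 bases before exon 10, where 0 annotated exons lie.

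**Figure D1:**
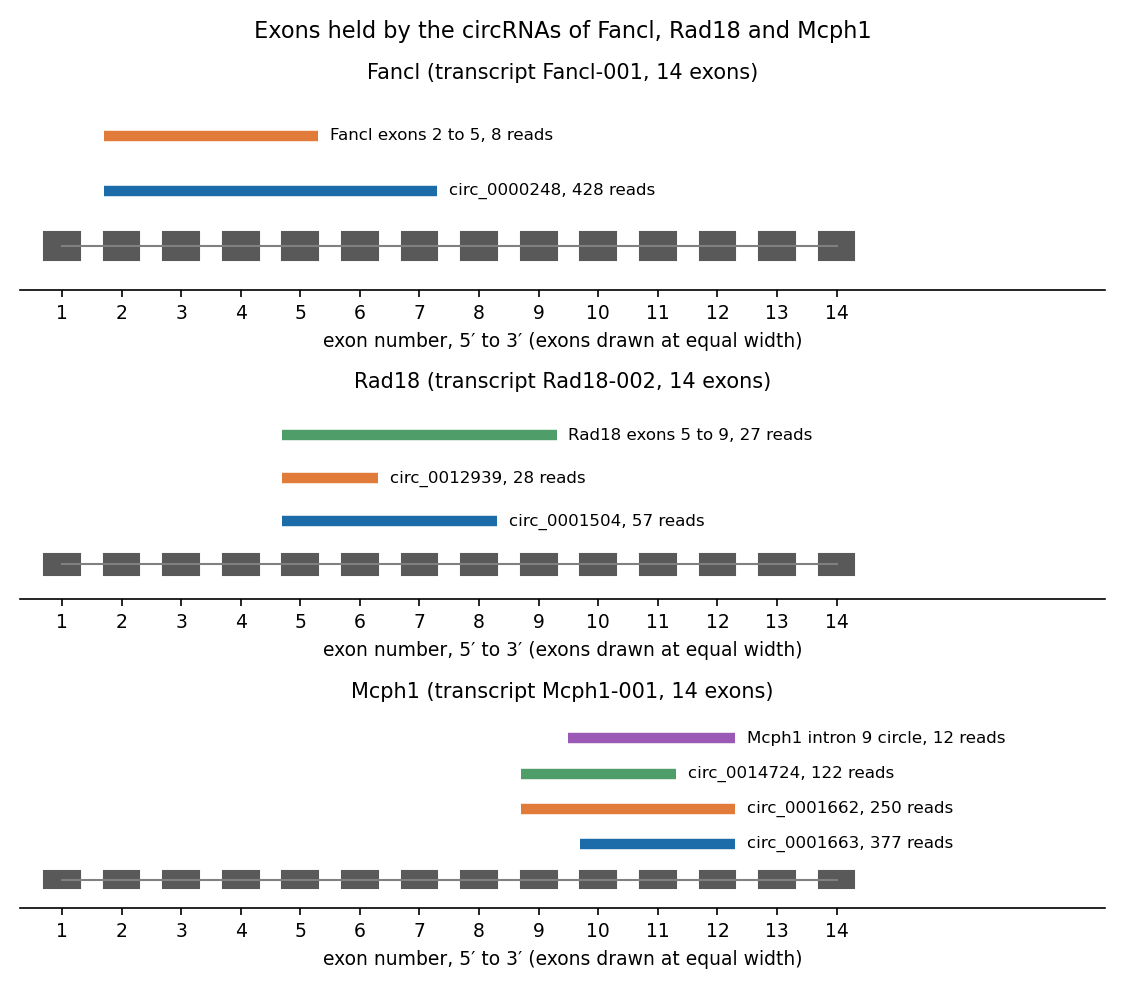
Exons held by each of the 9 circRNAs, drawn along the exon numbers of the host transcript (x axis, exons at equal width, introns not to scale), with all back-splice reads over the 6 libraries beside each bar. The Rad18 circles all begin at exon 5, and the Mcph1 circle with 12 reads begins between exons 9 and 10.

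Among the 3338 circRNAs with both ends at exon ends, the median circle held 3 exons and 444 spliced bases. Over all 3662 circRNAs the median span was 7491.5 bases of genome. The Fancl index circle matched the median in spliced bases, but its span of 36755 bases was longer than that of 91.6% of all circRNAs in the table. The span of the Mcph1 circle circ_0001662, 47495 bases, was longer than that of 94.9% of all circRNAs. The intron that follows exon 12 of Mcph1 has 99179 bases, longer than the following intron of 98.5% of circRNAs, and the median was 8302 bases. Spliced length was a multiple of 3 in 3 of the 8 members with annotated ends (444, 438 and 279 bases), close to the 36.3% of all such circRNAs. In the 1000 bases of intron on either side, the longest inverted match, a stretch that can pair with the other side, was 9 to 13 bases in the 9 members, against a median of 11 bases.

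The libraries held 30110 and 32310 back-splice reads at D0, 43069 and 41658 at D4, and 45371 and 50672 at D8. Levels are given as circCPM, the back-splice reads of a circle per 1000000 back-splice reads of its library, so 1 read was worth 19.7 to 33.2 circCPM. The table listed 0 values of exactly 1, and 29.3% of its values were 0. A circle listed at 0 may therefore have had a single read, so folds were left out where both libraries of a stage were at 0. Fold changes come from edgeR's quasi-likelihood fit with TMM normalization over the 1407 circRNAs that passed the filter on low counts, and SE is the standard error on the log2 scale. Of the 9 members 6 passed, namely the 3 index circles, the Mcph1 circles circ_0001662 and circ_0014724, and Rad18 exons 5 to 9. The study calls the replicates biological, but neither it nor the labels say whether they came from separate animals or cultures, so p-values measure only the spread between these samples.

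Fancl circles were most abundant at D4. The index circle circ_0000248 had 17 and 24 reads at D0, 115 and 130 at D4, and 62 and 80 at D8. The order was D4, then D8, then D0, and the replicates of the 3 stages did not overlap in reads or in circCPM. Its mean level was 654 ± 126 circCPM at D0, 2895 ± 319 at D4 and 1473 ± 150 at D8 (SD, n = 2). The fitted log2 change from D0 was 2.23 (SE 0.31, a 4.69-fold higher level) at D4 and 1.26 (SE 0.31, 2.40-fold) at D8. From D4 to D8 it was -0.97 (SE 0.29). As these counts were used to choose the circle, none of these changes is tested here.

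The second Fancl circle, exons 2 to 5, had 0 and 0 reads at D0, 2 and 6 at D4, and 0 and 0 at D8. It was thus listed at D4 alone, the stage at which the index circle was highest, and it fell below the filter on low counts. It took 1.71% and 4.41% of the Fancl back-splice reads at D4. In each library the index circle held at least 95.6% of the Fancl reads. The exact 95% binomial interval was 80.5% to 100% in the shallowest case, 17 of 17 reads at D0. Such intervals cover counting error only, since the libraries had no molecular identifiers and reads can be copies of 1 molecule.

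Rad18 circles had most of their reads at D0. The index circle circ_0001504 had 30 and 17 reads at D0, 0 and 10 at D4, and 0 and 0 at D8. Both D0 libraries were above both D4 libraries, and D8 was listed at 0. The mean level was 761 ± 332 circCPM at D0 and 120 ± 170 at D4 (SD, n = 2). The fitted log2 change from D0 to D4 was -2.56 with an SE of 1.25. Without D4 replicate 1, the library at 0, it was -1.59, and without D4 replicate 2 no value is given because D4 was then at 0.

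The other circles of Rad18 were also listed at 0 in both D8 libraries. Reads of circ_0012939, the shortest of the 3, were 6 and 16 at D0, 0 and 6 at D4, and 0 and 0 at D8. It fell below the filter on low counts, and without that filter its edgeR adjusted p across stages was 0.225. As it is listed in the table through its D0 reads alone, this p decides nothing about the stages. In circCPM its D0 libraries, at 199 and 495, both stood above the highest D4 value of 144. Rad18 exons 5 to 9 had 8 and 11 reads at D0, 8 and 0 at D4, and 0 and 0 at D8. Its levels were 266 and 340 circCPM at D0 against 186 and 0 at D4. This circle passed the filter on low counts through its D0 libraries, the stage where it was highest. The filter thus favoured a difference, and its p-values cannot decide a change between stages. In edgeR's quasi-likelihood test across stages its adjusted p was 0.279 (Benjamini-Hochberg over 1407 circRNAs). The alternatives gave adjusted p-values between 0.255 and 0.494. Its log2 change from D0 to D4 was -1.57 (SE 1.58, edgeR adjusted p = 0.666), and -0.55 without D4 replicate 2. At D8 against D0 the edgeR adjusted p was 0.189.

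Summed over the 3 circles, Rad18 had 44 and 44 reads at D0, 8 and 16 at D4, and 0 and 0 at D8. In circCPM this was 1412 ± 70.4 at D0 and 285 ± 140 at D4 (SD, n = 2). The replicates of D0 agreed in the sum, but not in how it was divided. The index circle held 68.2% of the Rad18 reads in D0 replicate 1 (exact 95% interval 52.4% to 81.4%) and 38.6% in replicate 2 (24.4% to 54.5%). On D4 all reads of replicate 1 were from exons 5 to 9, and replicate 2 had 62.5% from the index circle and the rest from circ_0012939. In the table as a whole, 123 genes had 44 or more summed reads in both D0 libraries, and Rad18 was the 1 among them listed at 0 in both D8 libraries. Of the 249 circRNAs with at least the mean D0 reads of circ_0001504, 3 were at 0 in both D8 libraries. These are descriptions, as the index circle was chosen for its counts. Both limits were also taken from the D0 counts of Rad18 itself.

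**Figure D2:**
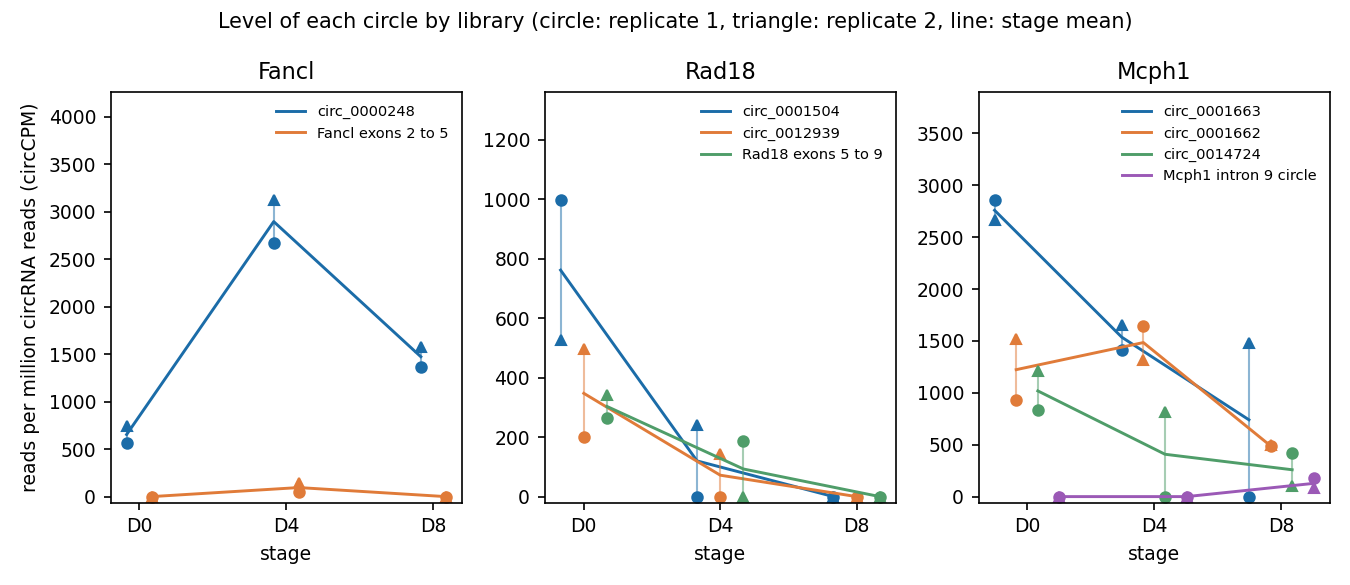
Level of each circle in circCPM (y axis, a scale of its own for each gene) at D0, D4 and D8 (x axis), with a dot for replicate 1, a triangle for replicate 2 and a line through the stage means. The Fancl index circle peaks at D4 at 2895 circCPM, the Rad18 circles reach 0 at D8, and the Mcph1 index circle is split between 0 and 1480 at D8.

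Mcph1 had the highest mean summed level of the 3 genes at each stage. At D8 this order held in replicate 2 (2151 circCPM, Fancl 1579) but turned in replicate 1 (1080 circCPM, Fancl 1367). The index circle circ_0001663 had 86 and 86 reads at D0, 61 and 69 at D4, and 0 and 75 at D8. The D0 libraries were above the others in circCPM, at 2856 and 2662 against 1416 and 1656 at D4, and the D8 replicates disagreed, at 0 and 1480. Its mean level was 2759 ± 138 circCPM at D0, 1536 ± 170 at D4 and 740 ± 1047 at D8 (SD, n = 2). The fitted log2 change from D0 was -0.75 (SE 1.07) at D4 and -1.80 (SE 1.11) at D8, and from D4 to D8 it was -1.05 (SE 1.11). Without D8 replicate 1 these were -0.72, -0.78 and -0.05, so the D8 level rests on that library. Among all 459 values of 75 or more reads in the table, 4 (0.871%) stood beside a 0 in the other replicate. That limit of 75 reads was set after this count had been seen.

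The circle circ_0001662, which adds exon 9 to the exons of the index circle, had 28 and 49 reads at D0, 71 and 55 at D4, and 22 and 25 at D8. Here the D8 libraries were the lowest and close to each other, while D0 (930 and 1517 circCPM) and D4 (1649 and 1320 circCPM) overlapped. Its mean level was 1223 ± 415 circCPM at D0, 1484 ± 232 at D4 and 489 ± 5.99 at D8 (SD, n = 2). Across stages the edgeR adjusted p was 0.126, which did not pass 0.05. The adjusted p ranged from 0.0613 without the filter on low counts to 0.383 by DESeq2. The log2 change from D0 to D8 was -1.22 (SE 0.39, edgeR adjusted p = 0.148), and from D0 to D4 it was 0.37 (SE 0.37, edgeR adjusted p = 0.666). From D4 to D8 the fit gave -1.59 (SE 0.39). Without D0 replicate 2 the D8 change from D0 was -0.81, and with 1 library left out the D4 change from D0 lay between 0.09 (without D0 replicate 1) and 0.78 (without D0 replicate 2).

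The circle of exons 9 to 11, circ_0014724, had 25 and 39 reads at D0, 0 and 34 at D4, and 19 and 5 at D8. Its D0 libraries, at 830 and 1207 circCPM, were above the highest D4 value of 816, while D4 and D8 overlapped. The test across stages gave an edgeR adjusted p of 0.610, with 0.155 to 0.901 over the alternatives. The log2 change from D0 was -1.23 (SE 1.25, edgeR adjusted p = 0.666) at D4 and -1.88 (SE 1.29, edgeR adjusted p = 0.483) at D8. Without D4 replicate 1 the D4 change was -0.25, and the D8 change was -3.21 without D8 replicate 1 and -1.13 without D8 replicate 2.

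The circle that begins in intron 9 had 0 reads in all D0 and D4 libraries, and 8 and 4 reads at D8. It was the single member listed at D8 alone. It fell below the filter on low counts, and without that filter its edgeR adjusted p across stages was 0.0683. As it is listed in the table through its D8 reads alone, this p decides nothing about the stages. In D8 replicate 1, where the index circle was listed at 0, both other circles that end with exon 12 were read, with 22 reads of circ_0001662 and these 8.

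Summed over its 4 circles, Mcph1 had 139 and 174 reads at D0, 132 and 158 at D4, and 49 and 109 at D8. The gene level was 5001 ± 544 circCPM at D0, 3429 ± 515 at D4 and 1616 ± 757 at D8 (SD, n = 2), in falling order with no overlap of the replicates. Such an order, D0 above D4 above D8 with no overlap, was found in 16 of the 485 genes with a mean of 20 or more summed reads (3.30%). The order of the Fancl sum, D4 above D8 above D0, was found in 38 of them (7.84%). These shares are descriptions, as both sums hold an index circle that was chosen for its counts. With the index circle left out, the 3 other Mcph1 circles together stood at 1760 and 2724 circCPM at D0, 1649 and 2136 at D4, and 1080 and 671 at D8. In this sum D0 and D4 overlapped and D8 was below both. The index circle held 61.9% and 49.4% of the Mcph1 reads at D0, 46.2% and 43.7% at D4, and 0% and 68.8% at D8. The exact 95% interval of the 0 of 49 reads in D8 replicate 1 reached up to 7.25%, and that of replicate 2 was 59.2% to 77.3%.

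**Figure D3:**
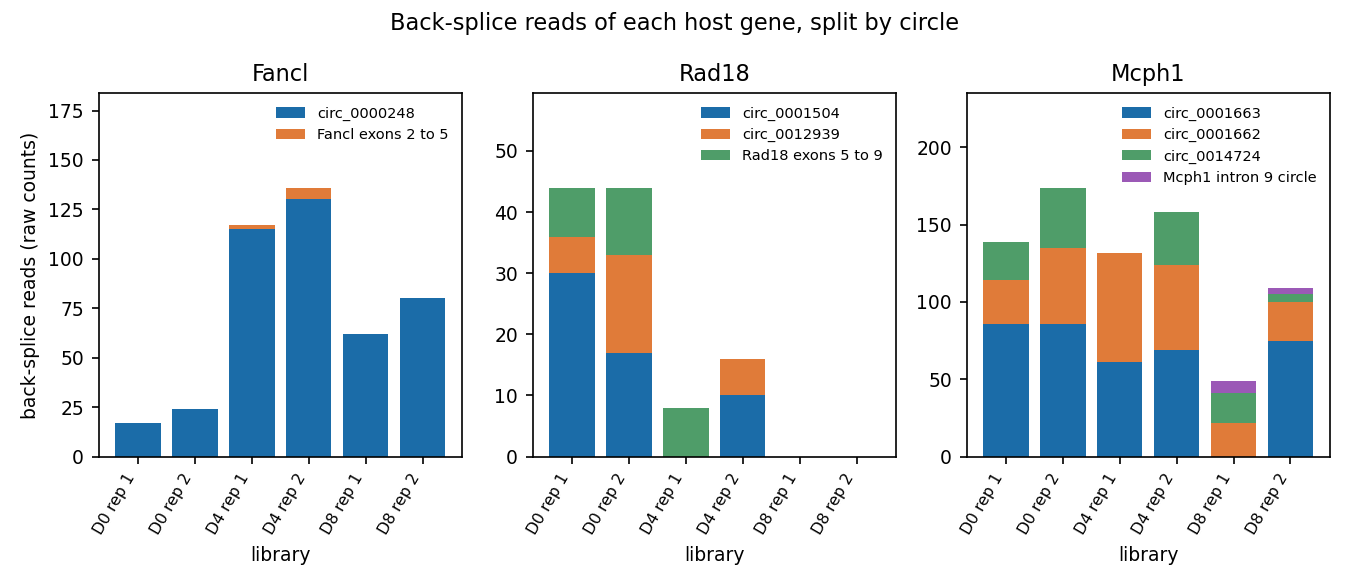
Back-splice reads (y axis, raw counts, a scale of its own for each gene) of Fancl, Rad18 and Mcph1 in each of the 6 libraries (x axis), stacked by circle. The Rad18 bars stand at 44 reads in both D0 libraries with different proportions of the 3 circles, and the bar of Mcph1 in D8 replicate 1 lacks the index circle.

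Of the 3 overlapping circles that were tested, 0 passed an adjusted p of 0.05 in edgeR's test across stages, and 1.14% of all tested circRNAs did. One of the 3, the Mcph1 circle circ_0001662, had an unadjusted p under 0.05, as had 295 of the 1407 (21.0%). DESeq2 gave an adjusted p for 2 of them and called 0, against 3.12% of all circRNAs to which it gave one. In the stage pairs edgeR called 0 of the 3 at D4 against D0 (3.27% of all) and 0 at D8 against D0 (1.49% of all). Unadjusted p-values under 0.05 were given to 0 of the 3 at D4 and to 2 at D8, circ_0001662 and Rad18 exons 5 to 9, beside 280 and 265 of all 1407. Rad18 exons 5 to 9 had passed the filter through its D0 libraries, where it was highest, so its p at D8 decides nothing. D8 against D4 was computed in the same fit but was not a planned test, and its changes are given without a p. Without the filter on low counts 1 overlapping circle was called, Fancl exons 2 to 5, with an edgeR adjusted p of 0.0495 on 8 reads in all, in a setting that called 10.8% of all circRNAs. This circle is listed in the table through its D4 reads alone, so the call decides nothing about the stages.

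In mean level over the 6 libraries, circ_0001663 of Mcph1 (1678 circCPM) and circ_0000248 of Fancl (1674 circCPM) were nearly equal and above 97.8% and 97.7% of all circRNAs. The Mcph1 circles circ_0001662 and circ_0014724 followed, above 95.8% and 91.0%. The Rad18 index circle was above 79.8%. The mean levels of circ_0012939 and Rad18 exons 5 to 9 were above 58.4% and 56.1%, and those of the Mcph1 intron 9 circle and Fancl exons 2 to 5 above 12.3% and 5.65%. These means pool stages that differ. At D0 circ_0001663 and circ_0000248 stood at 2759 and 654 circCPM, and at D4 at 1536 and 2895. The mean of circ_0001663 also holds its 0 in D8 replicate 1.

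Circles of other repair genes were described from 7 lists with 159 genes in all, of which 24 genes had 37 circles and 11 circles passed the filter. EdgeR called 0 of the 11 across stages (1.14% of all) and 0 in either comparison with D0, and DESeq2 called 0 as well. One of the 11, Pms1 circ_0000038, had an unadjusted p under 0.05 across stages, beside 21.0% of all circRNAs tested. The median log2 change was 0.23 at D4 and 0.06 at D8, beside 0.03 and 0.05 over all circRNAs tested. Without the filter on low counts edgeR called 4 of the 37 circles, beside 10.8% of all circRNAs.

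The Fanconi anaemia list, the pathway of Fancl, had circles for 2 of its 25 other genes, and none was tested. Exons 2 to 4 of Fancc, a core complex subunit, had 5 and 3 reads at D0, 6 and 7 at D4, and 0 and 0 at D8. The circle circ_0003493 of Brip1, a helicase, had 0 and 0 reads at D0, 6 and 6 at D4, and 0 and 0 at D8. In circCPM the Fancc circle stood at 166 and 92.9 at D0 against 139 and 168 at D4, so these stages overlapped, while the Brip1 circle was listed at D4 alone. Palb2 and Brca2 were counted in the recombination list and not in this one. Brca2 circ_0012368 went the other way at D8, with 15 and 5 reads there and 0 at D0 and D4. The Palb2 circle was tested and is given below.

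The list of translesion synthesis and post-replication repair, where Rad18 works, had 5 circles from 3 of its 18 other genes. The Rev1 circle circ_0000028, from a polymerase that inserts a base opposite damaged guanine, had 15 and 0 reads at D0, 0 and 29 at D4, and 14 and 11 at D8. It was tested and gave an edgeR adjusted p of 0.972. Exons 8 to 9 of Rev1 had 2 and 5 reads at D0 and exons 7 to 10 of Polh, the polymerase that copies past ultraviolet lesions, had 4 and 8. Both of these were listed at 0 at D4 and D8. Rev1 circ_0008713 had 0 and 5 reads at D0, 4 and 11 at D4, and 3 and 5 at D8. Rev3l circ_0002188, of another translesion polymerase, had 0 and 0 reads at D0, 0 and 2 at D4, and 3 and 6 at D8.

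The list of microcephaly, centrosome and condensin genes, the group of Mcph1, had 7 circles from 4 of its 18 other genes. The Casc5 circle circ_0001059, from a kinetochore scaffold, had 15 and 20 reads at D0, 30 and 38 at D4, and 11 and 19 at D8 (edgeR adjusted p = 0.266). Casc5 circ_0009218 had 16 and 14 reads at D0, 26 and 19 at D4, and 0 and 16 at D8 (edgeR adjusted p = 0.557). D8 replicate 1 was thus at 0 here too. The Stil and Cdk5rap2 circles of this list, of centriole and centrosome proteins, had 2 to 5 reads in the D0 libraries and 0 elsewhere. Casc5 exons 8 to 14 had 2 and 4 reads at D0, 2 and 0 at D4, and 0 and 0 at D8. Casc5 exons 8 to 11 had 0 and 3 reads at D0, 2 and 0 at D4, and 3 and 4 at D8. Cep63 circ_0015183 had 0 and 0 reads at D0, 0 and 5 at D4, and 4 and 2 at D8.

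In the lists of checkpoint, recombination and excision repair genes, Tlk1 circ_0001032 had the highest mean level. This circle of a kinase that acts in chromatin assembly had 76 and 65 reads at D0, 71 and 76 at D4, and 95 and 119 at D8 (edgeR adjusted p = 0.645). A second Tlk1 circle, circ_0001031, had 19 and 18 reads at D0, 18 and 18 at D4, and 38 and 40 at D8 (edgeR adjusted p = 0.407). The Rad52 circle circ_0001516, from a strand annealing protein, had 86 and 13 reads at D0, 23 and 37 at D4, and 67 and 55 at D8, so that its D0 replicates differed more than its stage means. Pms1 circ_0000038, from a mismatch repair protein, had 17 and 37 reads at D0, 81 and 70 at D4, and 44 and 44 at D8. Like Fancl circ_0000248, it had its highest reads in both D4 libraries, but its log2 change at D4 was 1.15 (SE 0.40, edgeR adjusted p = 0.158) and the test across stages gave an edgeR adjusted p of 0.218. The Palb2 circle circ_0013841, from a scaffold of recombination, had 4 and 16 reads at D0, 8 and 14 at D4, and 2 and 11 at D8 (edgeR adjusted p = 0.733).

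**Figure D4:**
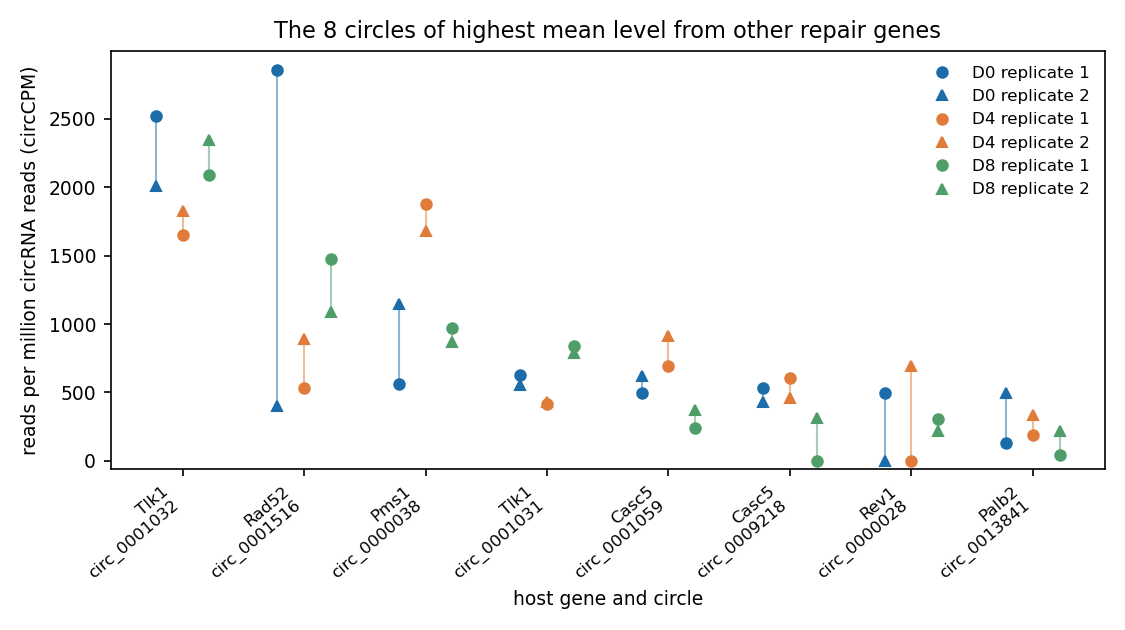
Level in circCPM (y axis) of the 8 circles of highest mean level from other repair genes (x axis), with a dot for replicate 1 and a triangle for replicate 2 of D0 (blue), D4 (orange) and D8 (green). The replicates of Pms1 circ_0000038 at D4 lie above those of D0 and D8, and Rad52 circ_0001516 spans 402 to 2856 circCPM within D0.

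Of the 37 circles of other repair genes, 5 (13.5%) were listed at D0 alone and 2 (5.41%) at D8 alone, beside 5.41% and 5.49% of all circRNAs. The 2 at D8 alone, both of the recombination list, had 15 and 5 reads and 2 and 3 reads there. At 0 in both D8 libraries were 10 of the 37 (27.0%), beside 15.8% of all. At 0 in both D0 libraries were 8 (21.6%), beside 20.5%. These shares rest on few reads and were not tested.

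Circles of marker genes were counted in the same libraries, and 3 passed the filter on low counts. Acaca circ_0000301, Pparg exons 2 to 4 and Pdgfra exons 2 to 3 had edgeR adjusted p-values across stages of 0.491, 0.188 and 0.447. The Pparg circle had passed through its D8 libraries and the Pdgfra circle through its D0 libraries, each the stage where it was highest. The p-values of the Pparg and Pdgfra circles therefore decide nothing about the stages. Of 14 adipocyte genes 5 had circles, 12 in all, with a summed level of 764 and 124 circCPM at D0, 1045 and 1152 at D4, and 2755 and 2546 at D8. All 5 circles of Pparg, the master regulator of fat cell formation, were listed at 0 at D0. Of 12 genes of preadipocytes and fibroblasts 1 had a circle, exons 2 to 3 of Pdgfra, with 8 and 10 reads at D0, 3 and 0 at D4, and 4 and 5 at D8. Of 8 macrophage and leukocyte genes 1 had a circle, Emr1, with 10 and 4 reads at D8 and 0 before. The 7 endothelial, 6 pericyte and 12 proliferation genes had 0 circles in the table. The part of the cell mixture in the Fancl, Rad18 and Mcph1 levels was not tested, and in bulk samples fewer cells of a type and less RNA per cell cannot be told apart.

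The circles of other genes most like each index circle were taken by Pearson's r of log2(circCPM + 10) over the 6 libraries, among the 906 circRNAs that averaged at least 10 reads. The points share their libraries and stages, so r is a description. For Fancl circ_0000248 they were Acer3 circ_0001600 (r = 0.984), from a ceramidase, Hibadh circ_0013437 (r = 0.981), from an enzyme of valine breakdown, and Ssbp2 circ_0000489 (r = 0.981). Acer3 had 19 and 32 reads at D0, 120 and 113 at D4, and 76 and 91 at D8. With any 1 library left out, r of the 3 stayed at 0.972 or above. The ranking itself changed in a setting added after the data were seen, without D8 replicate 1, where circles of Rere (r = 0.999), Map3k3 (r = 0.998) and Fer (r = 0.994) came first.

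For Rad18 circ_0001504 they were exons 2 to 5 of Gstcd (r = 0.962), Cnot4 circ_0013310 (r = 0.946) and exons 4 to 8 of Epb4.1l2 (r = 0.944). Gstcd had 27 and 25 reads at D0, 15 and 21 at D4, and 11 and 13 at D8. All 3 kept reads at D8, where the Rad18 circle was at 0. Without D8 replicate 1, the Epb4.1l2 circle (r = 0.985) was followed by circles of Tcf20 (r = 0.983) and Picalm (r = 0.958).

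For Mcph1 circ_0001663 they were an Etv6 circle with an end outside annotated exons (r = 0.993), Ttc28 circ_0001389 (r = 0.986) and Bub1b circ_0001058 (r = 0.986), the last from a kinase of the spindle checkpoint. Each of the 3 was at 0 in D8 replicate 1, as the Mcph1 circle was, and 20 of the 906 circRNAs were at 0 in that library and above 0 in the other 5. With 1 library left out, the lowest r was 0.603, 0.254 and 0.883. Bub1b had 50 and 54 reads at D0, 34 and 35 at D4, and 0 and 20 at D8. In the same added setting without D8 replicate 1, the most alike were circles of Fxr2 (r = 0.989) and Dlg5 (r = 0.984).

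**Figure D5:**
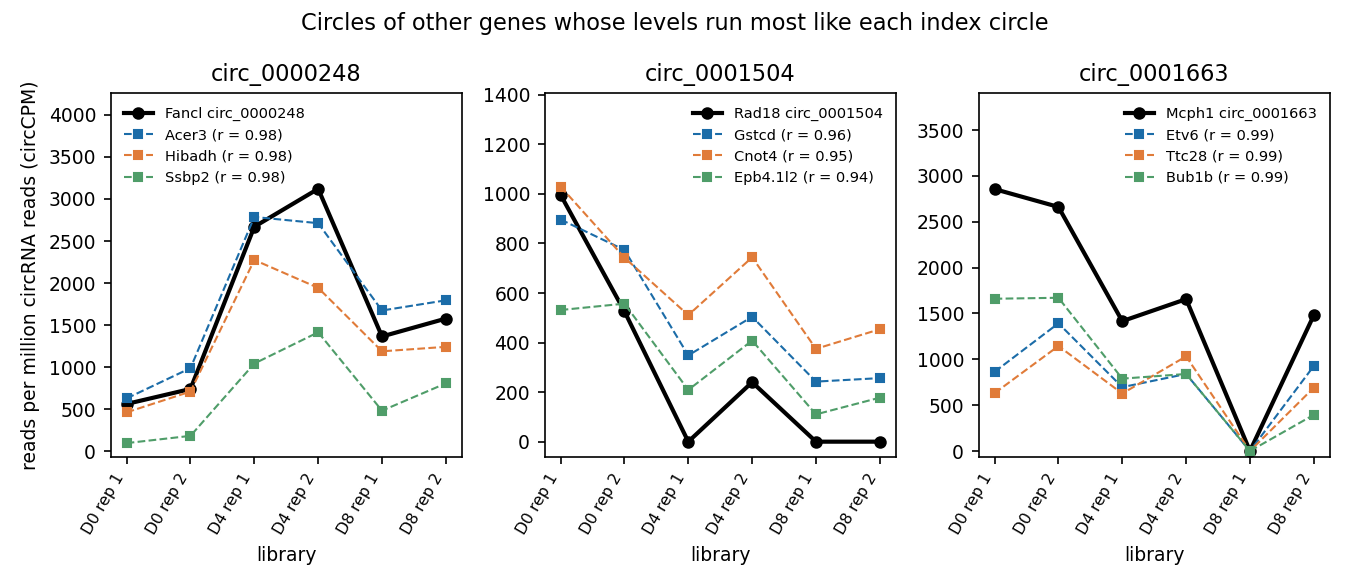
Level in circCPM (y axis, a scale of its own for each panel) of each index circle (black) and of the 3 circRNAs of other genes with the highest Pearson's r (coloured, dashed) in the 6 libraries (x axis). In the right panel all 4 lines fall to 0 in D8 replicate 1.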

How the data were processed

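Back-splice reads were analysed in 6 libraries of RNA freed of rRNA and linear RNA, 2 each from D0, D4 and D8, grouped by their labels. The authors used fastp 0.20.1 for trimming, BWA-MEM 0.7.17 for alignment to mm9 and CIRI2 for calling circRNAs. The deposited values are the authors' raw counts of back-splice reads per circRNA and library, kept where both replicates of a stage had 2 or more reads, which held for 3662 of 3662 rows when checked. Library totals were 30110 to 50672 reads. Because circles with few reads drop to 0, a low level is imprecise. The table carries no linear RNA, and mRNA was not analysed here.

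Members, gene lists and tests were chosen with earlier results of these data known. The rule named every member, the host genes, the 3 circRNAs most like each index circle, and in the repair lists each called circRNA and the 8 of highest mean level. Fancc, Brip1, Brca2, Polh, Rev3l, Stil, Cdk5rap2, Cep63 and the other Rev1 and Casc5 circles were named after their values were seen. So were the circles most alike without D8 replicate 1. Ends were placed on GENCODE vM1 exons and joints read from the NCBIM37 genome. Exon numbers are of the transcript that holds both ends.

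Changes were tested on the counts with edgeR 4.0.16 in R 4.3.3 (quasi-likelihood, TMM, filterByExpr with a minimum count of 10 and a minimum total of 15), and p-values were adjusted by Benjamini-Hochberg over 1407 circRNAs at 0.05. Alternatives were DESeq2 1.42.0 (likelihood ratio test), RLE factors, no filter, column totals as the sole scaling, a mean of at least 5 reads, a replicate block and each library left out. The fit was tested on simulated data. Intervals of shares are exact binomial (Clopper-Pearson). Likeness used a pseudocount of 10 circCPM. One circRNA that this rule names in an added setting is not reported here. Work was done in Python 3.11.15 and R.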

Additional observations from a re-analysis of the deposited data

How the results depend on the processing

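The number of circRNAs called across stages was 16 and moved with most settings. It was 39 by DESeq2, 5 with library totals alone, 396 without the filter on low counts, 5 with a mean of 5 or more reads, and 2 (without D4 replicate 2) to 58 (without D8 replicate 2) with 1 library left out. For D4 against D0 it was 46, with 4 to 67 when 1 library was left out, and for D8 against D0 it was 21, with 11 to 27. Of the overlapping circles 0 were called, with 0 to 0 when 1 library was left out and 1 without the filter. That 1 circle, Fancl exons 2 to 5, is listed through its D4 reads alone. Of the circles of other repair genes 0 were called, and 4 without the filter. The cause was not tested. The mean share of the index circle among Rad18 reads was 42.3%, 33.7% to 56.4% with 1 library left out, and 100% among circles with a mean of 5 or more reads, since the other Rad18 circles fall below that mean.

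The log2 changes of the index circles kept their direction in every alternative that gave a value. With 1 library left out, that of Fancl was 2.08 to 2.45 on D4 and 1.12 to 1.49 on D8. That of Mcph1 on D8 was -1.83 to -0.78, with the last value without D8 replicate 1. That of Rad18 on D4 was -2.94 to -1.59, and without D4 replicate 2 there was no value because D4 was then listed at 0. The same held for Mcph1 on D8 without D8 replicate 2. Over all settings 201 values stayed within the limits set for each result and 21 moved beyond them. The limits differed between results and some were wide. For Mcph1 on D8 against D4 the limit was 3.61, so a move from -1.05 to -0.05 without D8 replicate 1 lay within it. The tally is therefore no measure of stability.

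A replicate block gave 4 calls across stages, 17 for D4 against D0 and 4 for D8 against D0. The deviations of same-numbered libraries correlated at 0.0352 (D0 and D4), 0.0698 (D0 and D8) and 0.0470 (D4 and D8) across 1407 circRNAs, so the numbers are not shown to pair the samples. Depth limits the low circles, since a value listed at 0 may stand for a single read.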
